A study of Mus musculus with 12 samples.

Results

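A list of 34 mouse genes of the interferon response and of antigen presentation was followed through whole hearts of newborn and adult mice with and without a dominant-negative form of MCU. Members were taken by gene symbol. Each was represented by the probe set annotated with exactly that symbol and no other, and where several were, by the one with the highest mean over the 12 arrays. By this rule 32 of the 34 members had a probe set, of 18193 genes with one in the whole table, and 28 of them passed the filter on low signals and were tested, of 11804 genes tested in all. Ifi44 and Isg15 were not analysed here, and Irf7, Mx1, Oas2 and Tap1 lay under the filter. The list falls into 3 roles: 4 signalling genes, 21 effectors and 9 genes of antigen processing and presentation by class I molecules.

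The mice were CD1, an outbred stock, and each of the 4 groups held 3 hearts on 3 arrays: WT neonates and DN-MCU neonates at 1 day (hearts taken within the first day of life), and WT adults and DN-MCU adults at 42 days. The WT mice were littermates. All adults were labelled male and the sex of the neonates was not known, so the age comparison cannot be told apart from a difference in sex. MCU is the pore of the mitochondrial calcium uniporter, through which calcium enters the mitochondrial matrix, and the DN-MCU mice carried a transgene for a form of it that blocks the channel. The promoter that drives the transgene and its line are not given in the sources used here. Total RNA (500 ng per heart) was labelled as biotinylated cRNA and read on Affymetrix 3′ arrays, and all values below are log2 signals as the authors deposited them. A difference of 1 is a doubling of signal, and a level of one probe set cannot be set against that of another. With 3 hearts in a group, the number of arrays limits how precisely any difference is known.

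Interferons are secreted when cells sense viral nucleic acid or when lymphocytes are activated. Type I interferons act through the receptor chains Ifnar1 and Ifnar2 and, by way of Jak kinases, assemble a complex with Stat2 and Irf9 that binds interferon-stimulated response elements (ISRE). Interferon gamma acts through Ifngr1 and Ifngr2, and its signal reaches gamma-activated sites (GAS) in the DNA and raises Irf1. Among the genes so induced are antiviral effectors and the machinery that cuts cytosolic proteins with the immunoproteasome, pumps the peptides into the endoplasmic reticulum and loads them on class I molecules for display to CD8+ T cells. In the heart, resident macrophages, endothelium, fibroblasts and cardiomyocytes can all respond to interferon.

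The genotype labels and the tissue were checked first. One Mcu probe set read 8.44 to 10.41 in the 6 DN-MCU arrays and 2.45 to 4.55 in the 6 WT arrays, while a second one, at 7.39 to 8.14 and 7.41 to 8.18, overlapped between genotypes. The mean over 8 cardiomyocyte markers was 14.56 to 14.90 in every array. Neonates of a group resembled each other closely, and adults less so. The array DN-MCU adult 1 carried T cell markers: Cd3d read 7.67 there and 1.93 to 2.01 in the other 11 arrays, and the mean over 9 T and NK cell markers was 4.48 against 2.45 to 2.73. DN-MCU adult 3 lay apart on the second principal component, at -121.39 against -24.42 to 50.89. Where a member lost its call without these arrays, this is stated.

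The control regions of some members, not of all, hold letters that match the sequence elements through which interferon acts. RefSeq promoter windows (GRCm38.p6, 250 bases before to 50 after the start of transcription) were found for 30 of the 34 members, not for Mx1, Oas2, Tap2 and Usp18. The ISRE core, GAAA and GAAA again with any 2 bases between them (TTTC and TTTC on the other strand), stood in the windows of 13 of 30 members (43.3%) and of 1079 of 27025 genes in all (3.99%). It was found in 11 of 18 effectors, in B2m alone of 8 antigen presentation genes and in Stat2 alone of 4 signalling genes. The GAS letters TTCNNNGAA, which read the same on both strands, stood in 8 of 30 members (26.7%) and in 9.55% of genes in all, among them Irf1 and Psmb8. Matches of both kinds overlapped in Ifitm3 and Bst2. Of the sequences below, the first 4 were chosen as members that were higher in adults and hold the ISRE core, here in capitals, and Psmb8 and Psmb9 as the members with the largest postnatal changes. In Psmb8 the capitals mark the GAS letters, and in the Psmb9 stretch neither motif was found. All end at the start of transcription except Ifitm3, which runs from 120 bases before to 30 after it.
Ifit3 (chr19:34583329-34583528, plus strand): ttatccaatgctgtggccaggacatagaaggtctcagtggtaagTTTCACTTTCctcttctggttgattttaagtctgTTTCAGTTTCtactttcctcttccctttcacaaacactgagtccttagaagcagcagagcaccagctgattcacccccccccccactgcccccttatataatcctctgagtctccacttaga
Gbp2 (chr3:142620463-142620662, plus strand): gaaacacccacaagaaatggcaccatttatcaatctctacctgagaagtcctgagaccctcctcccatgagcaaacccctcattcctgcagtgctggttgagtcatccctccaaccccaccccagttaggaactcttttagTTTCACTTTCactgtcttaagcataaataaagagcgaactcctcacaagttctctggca
Ifitm3 (chr7:141010715-141010864, minus strand): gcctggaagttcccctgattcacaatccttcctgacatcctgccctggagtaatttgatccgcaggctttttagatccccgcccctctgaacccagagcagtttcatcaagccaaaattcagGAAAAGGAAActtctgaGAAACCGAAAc
B2m (chr2:122147487-122147686, plus strand): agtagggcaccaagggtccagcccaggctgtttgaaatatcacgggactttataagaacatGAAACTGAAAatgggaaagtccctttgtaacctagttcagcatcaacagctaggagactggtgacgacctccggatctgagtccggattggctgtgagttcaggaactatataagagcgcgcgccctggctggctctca
Psmb8 (chr17:34197995-34198194, plus strand): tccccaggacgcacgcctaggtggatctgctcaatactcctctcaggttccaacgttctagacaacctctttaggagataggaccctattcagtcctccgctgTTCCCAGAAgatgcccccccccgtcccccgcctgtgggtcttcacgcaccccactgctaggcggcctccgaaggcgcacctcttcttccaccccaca
Psmb9 (chr17:34187331-34187530, minus strand): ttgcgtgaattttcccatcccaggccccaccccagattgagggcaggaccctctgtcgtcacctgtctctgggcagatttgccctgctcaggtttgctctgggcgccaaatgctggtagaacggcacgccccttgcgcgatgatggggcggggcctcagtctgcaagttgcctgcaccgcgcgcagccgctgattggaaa

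The Psmb9 window shares 275 of its 300 bases with that of Tap1, which is read from the other strand. Psmb9, Tap1, Psmb8 and Tap2 follow each other on chromosome 17 with no other protein-coding gene between them. H2-K1, Tapbp, H2-D1 and the class II genes H2-Ab1, H2-Aa and H2-Eb1 lie on the same chromosome. Ifit2 and Ifit3 are neighbours on chromosome 19. A match of letters is a description of the window and not of binding.

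The first question was how the module changed after birth. In WT hearts 17 of the 28 tested members were higher at 42 days than at 1 day and 0 were lower (limma, Benjamini-Hochberg adjusted p under 0.05 over all probe sets tested), while 11 did not pass. Over all genes tested 17.2% were higher and 27.8% lower. In an alternative fit with the replicate numbers of the neonates as a block, 14 members were higher, against 15.3% of all genes. The median difference of the tested members was 1.17 on the log2 scale, and 1.03 over the 32 members with a probe set, against -0.16 over all genes. In 21 members all 3 WT adults lay above all 3 WT neonates, which held for 25.6% of all genes. The median kept its direction under each scaling tried. Stat2, Ifit1, Ifit3 and Usp18 (14.3% of tested members, against 2.08% of all genes) passed the filter only through adult arrays and so had to be higher there, which is why the counts over tested members are given as a description.

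DN-MCU hearts, on arrays that the WT comparison does not use, had 19 of 28 members higher at 42 days and 0 lower, against 17.6% higher and 29.1% lower among all genes. Their median was 1.29 (1.12 over the 32 with a probe set), against -0.17 over all genes. Without DN-MCU adult 1, the heart with T cell markers, 19 members were higher and 1, Trim25, was lower, and the median was 1.14. Without DN-MCU adult 3, 21 were higher. Of the members higher in WT, 15 were also higher in DN-MCU, which is 88.2% of the WT list and 78.9% of the DN-MCU list. No matching share was taken over all genes, so this overlap is not shown to be particular to the module. In 20 of 28 members every one of the 6 adult arrays lay above every one of the 6 neonatal arrays, which held for 15.6% of all genes. These 20 include Stat2, Ifit1, Ifit3 and Usp18, which passed the filter only through adult arrays, so the count is a description. The gap was slight for Stat2 (lowest adult 2.88, highest neonate 2.87), Ifit1 (2.03 and 2.02) and Cxcl10 (3.66 and 3.63). In bulk hearts, more cells of a type and more RNA per cell cannot be told apart.

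**Figure D1:**
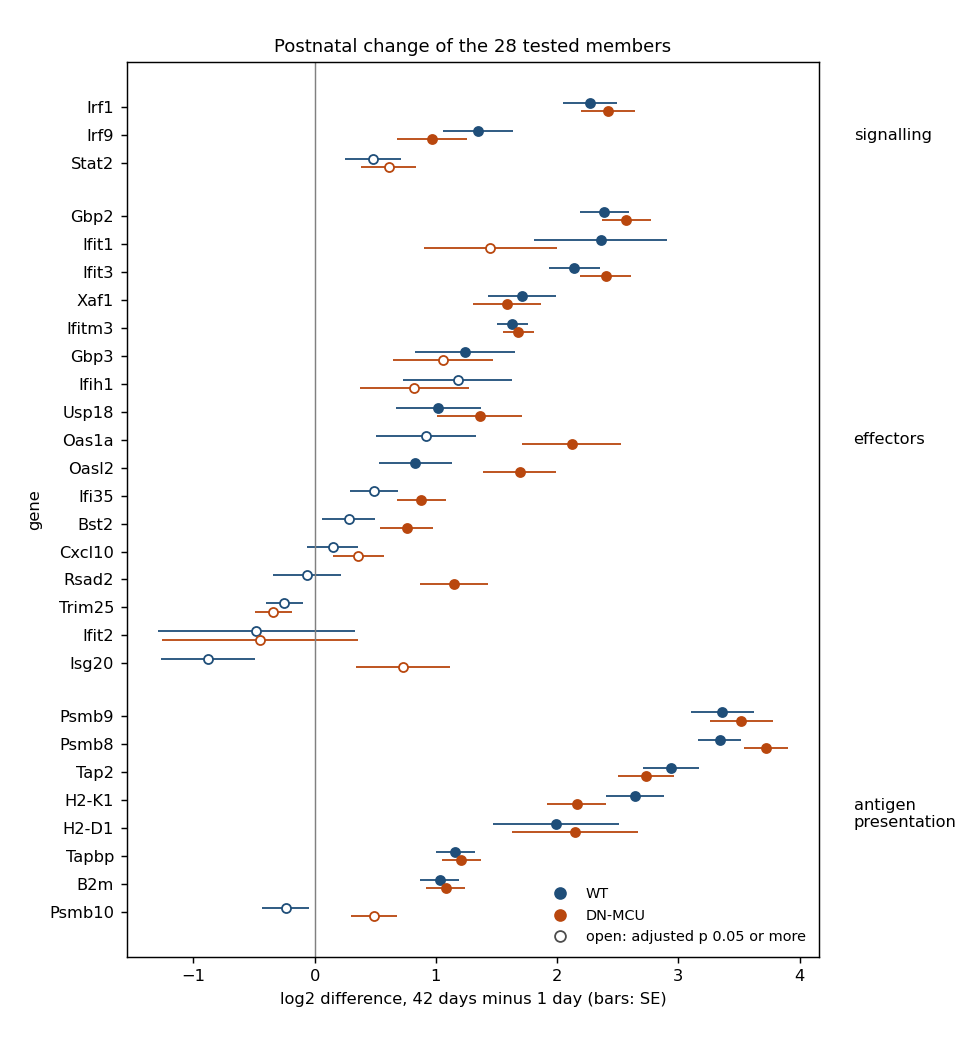
Log2 difference between 42 days and 1 day for the 28 tested members, by role, in WT (blue) and DN-MCU (orange) hearts, with the SE of the fit as bars and filled points for an adjusted p under 0.05. Psmb9 and Psmb8 lie farthest to the right in both genotypes, at 3.36 and 3.34 in WT, and no filled point lies left of 0.

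The largest changes were in the immunoproteasome, whose subunits replace those of the constitutive particle and alter which peptides are cut. Psmb8, its chymotrypsin-like subunit, read 4.40, 3.98 and 3.99 in the WT neonates, 3.90, 3.96 and 3.94 in the DN-MCU neonates, 7.28, 7.77 and 7.31 in the WT adults and 7.92, 7.57 and 7.48 in the DN-MCU adults. All 6 adults were high and all 6 neonates low, with a gap of over 2 log2 units between them. Psmb8 was 3.34 higher in WT adults (SE 0.18, 10.1-fold, limma adjusted p 3.37e-07) and 3.72 higher in DN-MCU adults (SE 0.18, 13.2-fold, adjusted p 1.58e-07). Psmb9, the subunit that takes the caspase-like position, read 3.94, 3.37 and 4.01 (WT) and 4.06, 3.38 and 3.61 (DN-MCU) at 1 day, and 7.14, 7.49 and 6.75 (WT) and 7.51, 6.93 and 7.18 (DN-MCU) at 42 days. Its adults and neonates were again apart without overlap, by 3.36 in WT (SE 0.26, 10.2-fold, limma adjusted p 3.84e-06) and 3.52 in DN-MCU (SE 0.26, 11.5-fold, adjusted p 2.83e-06). The lowest Psmb9 neonates, WT neonate 2 at 3.37 and DN-MCU neonate 2 at 3.38, lay just above the filter level of 3.35. The Psmb9 folds are therefore uncertain. A second, dim Psmb8 probe set differed by 0.22 in WT and 0.27 in DN-MCU and did not pass.

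Psmb10, the immunoproteasome subunit of the trypsin-like site, did not follow the others. It read 9.80, 9.58 and 9.62 in the WT neonates, 9.73, 10.06 and 9.60 in the DN-MCU neonates, 9.62, 9.35 and 9.30 in the WT adults and 10.22, 10.02 and 10.61 in the DN-MCU adults. The WT adults overlapped the WT neonates, with a difference of -0.24 (SE 0.19, limma adjusted p 0.313), and the DN-MCU adults were the highest group, 0.49 above the DN-MCU neonates (SE 0.19, adjusted p 0.0522). The constitutive partners that these subunits replace did not pass in either genotype: Psmb5, replaced by Psmb8, differed by 0.03 in WT and 0.30 in DN-MCU, Psmb6, replaced by Psmb9, by -0.21 and -0.05, and Psmb7, replaced by Psmb10, by 0.54 and 0.62. Of 14 constitutive subunits of the core particle 0 were higher and 4 lower in WT, and 0 higher and 3 lower in DN-MCU, with Psma1 lowest at -0.73 and -0.98. The next by p were Psma5 (-0.42) and Psma3 (-0.40) in WT and Psma2 (-0.51) and Psma3 (-0.33) in DN-MCU, where the Psma3 call (limma adjusted p 0.0481) was lost with the replicate numbers of the neonates as a block (adjusted p 0.0883).

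Peptide transport and loading was higher at 42 days as well. Tap2, a chain of the peptide pump of the endoplasmic reticulum, read 4.54, 4.86 and 4.99 (WT) and 4.48, 5.14 and 5.34 (DN-MCU) at 1 day, and 7.56, 8.08 and 7.59 (WT) and 7.65, 7.76 and 7.73 (DN-MCU) at 42 days. The adults were high in both genotypes without overlap, by 2.94 in WT (SE 0.23, 7.69-fold, limma adjusted p 3.89e-06) and 2.73 in DN-MCU (6.62-fold, adjusted p 7.09e-06). Its partner Tap1 lay under the filter on all 4 of its probe sets, with group means of at most 2.87, so nothing is said of its change. Tapbp, or tapasin, which bridges the pump and the class I molecule, read 9.13, 9.22 and 8.75 (WT) and 9.22, 9.08 and 9.04 (DN-MCU) at 1 day, and 10.41, 10.04 and 10.14 (WT) and 10.30, 10.23 and 10.43 (DN-MCU) at 42 days. It was 1.16 higher in WT adults (SE 0.16, 2.24-fold, limma adjusted p 0.000187) and 1.21 higher in DN-MCU adults (2.31-fold, adjusted p 0.00015), with no neonate as high as any adult.

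Class I molecules themselves followed. B2m, the invariant light chain of every class I molecule, read 12.30, 12.20 and 12.26 in the WT neonates, 12.44, 12.37 and 12.08 in the DN-MCU neonates, 13.41, 13.47 and 12.98 in the WT adults and 13.28, 13.47 and 13.38 in the DN-MCU adults. All adults lay above all neonates, by 1.03 in WT (SE 0.16, 2.05-fold, limma adjusted p 0.000414) and 1.08 in DN-MCU (2.12-fold, adjusted p 0.000324), and a second B2m probe set gave 1.28 and 1.35. H2-K1, a classical class I heavy chain, read 8.78, 8.53 and 8.59 (WT) and 9.07, 9.19 and 8.84 (DN-MCU) at 1 day, and 11.51, 11.43 and 10.86 (WT) and 11.53, 11.36 and 10.71 (DN-MCU) at 42 days. Adults were again apart from neonates, by 2.64 in WT (SE 0.24, 6.21-fold, limma adjusted p 9.60e-06) and 2.16 in DN-MCU (4.48-fold, adjusted p 4.02e-05). The other classical heavy chain, H2-D1, read 9.80, 9.33 and 9.57 (WT) and 9.38, 9.29 and 9.24 (DN-MCU) at 1 day, and 12.84, 11.18 and 10.65 (WT) and 10.59, 12.21 and 11.56 (DN-MCU) at 42 days, with a wide spread among adults and no overlap with neonates. Its difference was 1.99 in WT (SE 0.52, limma adjusted p 0.0095) and 2.15 in DN-MCU (SE 0.52, adjusted p 0.00637). The H2 heavy chains are near-identical and polymorphic genes, and most of their probe sets are of a kind that can match relatives, so these levels are uncertain. Without such probe sets H2-K1 could not be tested. The 4 tested H2-K1 probe sets differed by 0.59 to 2.64 in WT, where 3 passed, and by 0.85 to 2.16 in DN-MCU, where 4 passed. The 7 tested H2-D1 probe sets differed by 1.71 to 4.58 in WT, where 6 passed, and by 0.73 to 2.45 in DN-MCU, where 3 passed. The 3 with the largest WT differences were high in WT adult 2, WT adult 3 and DN-MCU adult 1 and low in the other adults. Their values are in the closing section. Between adult genotypes 0 of the 7 passed, so these ranges and counts are not read as a difference between WT and DN-MCU.

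**Figure D2:**
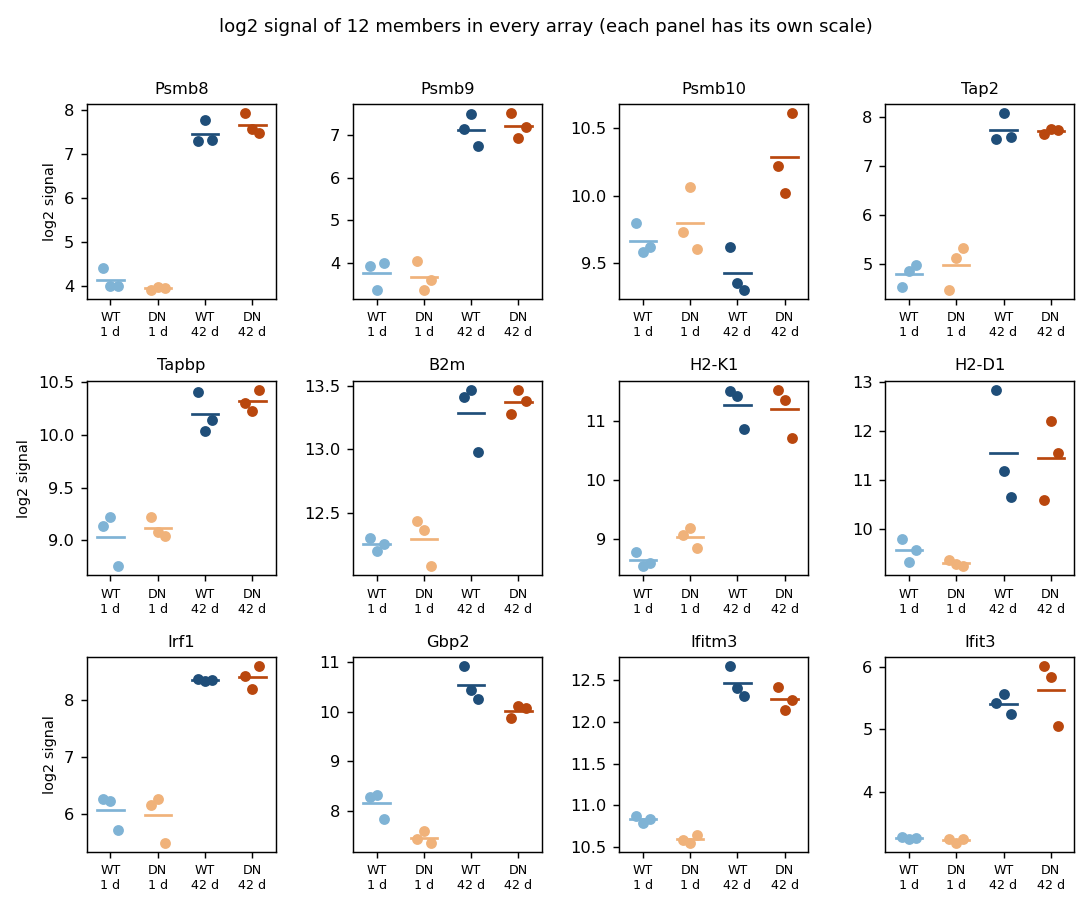
Log2 signal of 12 members in each array, as points with the group mean as a line, for WT and DN-MCU (DN) hearts at 1 day (light) and 42 days (dark), with a separate scale in every panel. Adult points lie above all neonatal points in 11 of the panels, and in Psmb10 the DN-MCU adults lie above the WT adults.

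Of the signalling genes, Irf1 was the clearest. This transcription factor, itself a target of interferon gamma and an activator of class I genes, read 6.26, 6.24 and 5.73 in the WT neonates, 6.17, 6.27 and 5.50 in the DN-MCU neonates, 8.37, 8.33 and 8.34 in the WT adults and 8.41, 8.20 and 8.59 in the DN-MCU adults. The 6 adults were close together and high and the third neonate of each genotype was lowest. Irf1 was 2.27 higher in WT adults (SE 0.22, 4.82-fold, limma adjusted p 1.73e-05) and 2.42 higher in DN-MCU adults (5.36-fold, adjusted p 1.13e-05). Irf9, the DNA-binding part of the type I complex, read 6.82, 6.21 and 6.52 (WT) and 6.89, 6.76 and 6.15 (DN-MCU) at 1 day, and 7.90, 8.23 and 7.47 (WT) and 7.41, 7.25 and 8.04 (DN-MCU) at 42 days. It was higher in adults without overlap, by 1.35 in WT (SE 0.29, limma adjusted p 0.00307) and 0.97 in DN-MCU (SE 0.29, adjusted p 0.0187). The DN-MCU call of Irf9 was lost without DN-MCU neonate 3 or DN-MCU adult 3, and its adjusted p reached 0.194 over the alternatives tried.

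Stat2, the type I partner of Irf9, was near background, at 2.78 to 2.87 in the 6 neonates and 2.88 to 3.90 in the adults. It differed by 0.48 in WT (limma adjusted p 0.118) and 0.61 in DN-MCU (adjusted p 0.0560), which did not pass. Irf7, which amplifies the type I response, stayed under the filter, at 1.83 to 2.07 in all arrays. By role, 2 of 3 tested signalling genes, 8 of 17 effectors and 7 of 8 antigen presentation genes were higher in WT adults, with medians of 1.35, 0.92 and 2.31. In DN-MCU these were 2 of 3, 10 of 17 and 7 of 8, with medians of 0.97, 1.15 and 2.16.

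Effectors were divided. Gbp2, a guanylate-binding GTPase that attacks intracellular pathogens, read 8.28, 8.32 and 7.84 in the WT neonates, 7.42, 7.59 and 7.35 in the DN-MCU neonates, 10.92, 10.43 and 10.25 in the WT adults and 9.87, 10.11 and 10.08 in the DN-MCU adults. The adults were high in both genotypes, by 2.39 in WT (SE 0.20, 5.23-fold, limma adjusted p 5.33e-06) and 2.57 in DN-MCU (5.94-fold, adjusted p 3.37e-06), and a second probe set gave 2.24 and 2.64. Ifitm3, a membrane protein that hinders virus entry, read 10.87, 10.79 and 10.84 (WT) and 10.59, 10.55 and 10.64 (DN-MCU) at 1 day, and 12.67, 12.41 and 12.31 (WT) and 12.42, 12.15 and 12.26 (DN-MCU) at 42 days. Its 6 adults lay above 12 and its 6 neonates below 11, with differences of 1.63 in WT (SE 0.13, 3.10-fold, limma adjusted p 4.71e-06) and 1.68 in DN-MCU (3.21-fold, adjusted p 4.07e-06).

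Ifit3, a member of the IFIT family that binds foreign RNA, read 3.29, 3.25 and 3.27 (WT) and 3.26, 3.19 and 3.25 (DN-MCU) at 1 day, and 5.43, 5.56 and 5.24 (WT) and 6.01, 5.83 and 5.05 (DN-MCU) at 42 days. The neonates lay at background and every adult lay above them, with differences of 2.14 in WT (SE 0.21, limma adjusted p 2.16e-05) and 2.40 in DN-MCU (adjusted p 9.96e-06); no fold is given against a background signal. Its relative Ifit1 read 2.00, 1.96 and 1.97 (WT) and 2.02, 1.91 and 1.93 (DN-MCU) at 1 day, and 4.58, 4.46 and 3.97 (WT) and 4.96, 3.21 and 2.03 (DN-MCU) at 42 days. Here the neonates were at background, 5 of 6 adults were well above them and DN-MCU adult 3 was only just above. Ifit1 differed by 2.36 in WT (SE 0.55, limma adjusted p 0.00501) and by 1.45 in DN-MCU (SE 0.55, adjusted p 0.0504), which did not pass with all arrays and passed without DN-MCU adult 3. Ifit2 was scattered in every group, from 4.76 to 7.94, with differences of -0.48 and -0.45 (SE 0.81 each) that did not pass.

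Xaf1, a protein that promotes apoptosis, read 7.12, 6.81 and 6.84 (WT) and 7.33, 6.70 and 6.25 (DN-MCU) at 1 day, and 8.85, 8.71 and 8.35 (WT) and 8.11, 8.16 and 8.78 (DN-MCU) at 42 days, with adults above neonates by 1.71 in WT (SE 0.28, limma adjusted p 0.000569) and 1.59 in DN-MCU (adjusted p 0.000937). That call was lost in both genotypes when the probe sets of the gene were averaged (adjusted p 0.366 in WT and 0.223 in DN-MCU); a second Xaf1 probe set was dim in 10 of 12 arrays.

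A further 3 effectors passed in WT by a small margin. Oasl2, a relative of the oligoadenylate synthetases that detect double-stranded RNA, read 4.28, 4.59 and 3.95 in the WT neonates, 3.60, 3.41 and 3.78 in the DN-MCU neonates, 5.74, 5.10 and 4.47 in the WT adults and 5.48, 4.98 and 5.42 in the DN-MCU adults; WT neonate 2 lay above WT adult 3. It differed by 0.83 in WT (SE 0.30, limma adjusted p 0.0423) and by 1.69 in DN-MCU (SE 0.30, adjusted p 0.000978). Usp18, which strips Isg15 from proteins and restrains the type I receptor, read 2.62, 2.96 and 3.03 (WT) and 3.05, 3.01 and 2.74 (DN-MCU) at 1 day, and 3.97, 4.09 and 3.63 (WT) and 5.12, 3.39 and 4.37 (DN-MCU) at 42 days. The neonates were at background and DN-MCU adult 1, the heart with T cell markers, was highest. Usp18 differed by 1.02 in WT (SE 0.35, limma adjusted p 0.0347) and 1.36 in DN-MCU (adjusted p 0.00913). Without DN-MCU adults 1 and 3 together the DN-MCU difference was 0.46 (adjusted p 0.151) and the call was lost. Gbp3, a relative of Gbp2, read 5.76, 5.52 and 5.41 (WT) and 5.72, 5.58 and 5.57 (DN-MCU) at 1 day, and 5.97, 7.51 and 6.91 (WT) and 6.80, 7.40 and 5.85 (DN-MCU) at 42 days. One adult of each genotype lay close to the neonates and the other 4 lay well above. Gbp3 differed by 1.24 in WT (SE 0.41, limma adjusted p 0.0315) and by 1.06 in DN-MCU (adjusted p 0.0564). With the replicate numbers of the neonates as a block, the WT calls of Oasl2, Usp18 and Gbp3 were lost (adjusted p 0.0786, 0.0673 and 0.0610), which left 14 members higher in WT. Single arrays mattered too. The Oasl2 call was lost without WT neonate 1 or 3, any DN-MCU neonate, or WT adult 1 or 2, that of Usp18 without any WT neonate or WT adult 1 or 2, and that of Gbp3 without any WT neonate or WT adult 2 or 3, with adjusted p up to 0.148, 0.109 and 0.123 over the alternatives.

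Ifi35, Oas1a, Rsad2 and Bst2 passed in DN-MCU and not in WT. Ifi35, an interferon-induced regulator, read 9.84, 9.78 and 9.65 (WT) and 9.82, 9.96 and 9.71 (DN-MCU) at 1 day, and 10.51, 10.15 and 10.10 (WT) and 10.58, 10.38 and 11.17 (DN-MCU) at 42 days. Its highest array was DN-MCU adult 3, and both adult groups lay above their neonates. Ifi35 differed by 0.88 in DN-MCU (SE 0.20, limma adjusted p 0.0052) and 0.49 in WT (adjusted p 0.0704). A second Ifi35 probe set passed in WT too (0.40, limma adjusted p 0.0471), and Ifi35 was called there in 7 of 25 alternatives. Oas1a, an oligoadenylate synthetase, read 3.52, 3.56 and 3.62 (WT) and 3.54, 3.02 and 3.38 (DN-MCU) at 1 day, and 4.94, 4.63 and 3.88 (WT) and 5.66, 4.41 and 6.23 (DN-MCU) at 42 days, with the widest spread in the DN-MCU adults. It differed by 2.12 in DN-MCU (SE 0.41, limma adjusted p 0.00177) and 0.92 in WT (adjusted p 0.0926). The DN-MCU neonates of Oas1a, with a mean of 3.31, lay at background, so the size of this difference is uncertain. The DN-MCU difference of Oas1a ranged from 1.1 to 2.63 over the alternatives. Rsad2, or viperin, an enzyme that makes a chain-terminating nucleotide, read 7.78, 8.80 and 7.57 (WT) and 6.87, 6.74 and 6.96 (DN-MCU) at 1 day, and 7.90, 8.06 and 8.01 (WT) and 8.03, 8.30 and 7.71 (DN-MCU) at 42 days. The WT neonates overlapped the adults and the DN-MCU neonates were lower. Rsad2 differed by 1.15 in DN-MCU (SE 0.28, limma adjusted p 0.00672) and -0.06 in WT (adjusted p 0.881), and the DN-MCU call was lost when its probe sets were averaged (adjusted p 0.0510). Bst2, or tetherin, which holds virus particles at the cell surface, read 6.38, 6.60 and 6.47 (WT) and 6.37, 6.60 and 6.50 (DN-MCU) at 1 day, and 7.24, 6.76 and 6.30 (WT) and 7.49, 7.08 and 7.20 (DN-MCU) at 42 days, with WT adult 3 below the WT neonates. It differed by 0.76 in DN-MCU (SE 0.22, limma adjusted p 0.0154) and 0.28 in WT (adjusted p 0.316). The Bst2 call was lost without DN-MCU neonate 1 or DN-MCU adult 1, with adjusted p up to 0.152. Whether the postnatal change differed between genotypes was tested directly by the interaction of age and genotype, which 0 of 28 members passed, against 0.949% of all genes, so these members are not shown to differ between WT and DN-MCU.

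Beside Ifit2, 4 tested effectors passed in neither genotype. Isg20, an exonuclease that degrades RNA, differed by -0.88 in WT (limma adjusted p 0.0887) and 0.73 in DN-MCU (adjusted p 0.15). Ifih1, the sensor Mda5, differed by 1.18 (adjusted p 0.0544) and 0.82 (adjusted p 0.158) in limma's fit. Cxcl10, a chemokine for activated T cells, lay between 3.57 and 3.79 in 11 arrays and at 4.56 in DN-MCU adult 1. Trim25, a ubiquitin ligase of the RIG-I pathway, differed by -0.25 and -0.34. A second Trim25 probe set passed as lower in DN-MCU (-0.70, limma adjusted p 0.00358) and differed by -0.38 in WT (adjusted p 0.0608), and another, dim one differed by -0.01 in both. Of the effectors under the filter, Mx1, a GTPase that blocks influenza virus, read 2.60 to 2.83 in all arrays. Oas2 read 2.50 to 2.66 in the neonates and 2.83 to 3.56 in the adults, and it was called higher in both genotypes only when no filter was used.

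Members with and without the ISRE core were both found among those that were higher in adults. In WT, 6 of 12 tested members with the ISRE core and 9 of 14 without it were higher in adults, with medians of 1.10 and 1.25. In DN-MCU these were 7 of 12 and 10 of 14, with medians of 1.12 and 1.40. Among the members with the core, Ifit3, Gbp2, Ifitm3 and B2m, printed above, were higher in both genotypes and Stat2, Cxcl10 and Ifih1 in neither. With the GAS letters 3 of 8 were higher in WT and 6 of 8 in DN-MCU, against 12 of 18 and 11 of 18 without them. No test was made of these counts.

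The rest of the pathway gives the setting. The postnatal counts of this and the following lists stand beside 17.2% higher and 27.8% lower among all genes in WT. In DN-MCU these shares were 17.6% and 29.1%. Of 9 interferon genes listed, 6 had a probe set (Ifnb1, Ifna1, Ifna2, Ifna4, Ifna5 and Ifng), and all read between 2.03 and 2.88 in every array, under the filter. Of 9 tested receptor chains and kinases 6 were higher and 1 lower in WT adults, and 5 and 1 in DN-MCU adults. With the neonatal block 5 and 4 were higher, as Jak1 was lost in WT (0.41, limma adjusted p 0.0587) and Tyk2 in DN-MCU (0.51, adjusted p 0.0790). Ifngr1 was 1.21 higher in WT (limma adjusted p 0.000931) and 0.78 in DN-MCU (adjusted p 0.0123), and Ifngr2 was 0.95 (adjusted p 0.00358) and 0.83 (adjusted p 0.00757) higher. The type I chains moved in opposite directions, with Ifnar2 0.90 and 1.20 higher and Ifnar1 lower, with differences of -0.58 in WT and -0.72 in DN-MCU. Il10rb, shared by the receptors for type III interferon and interleukin-10, was 1.44 and 1.24 higher.

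Among 10 tested sensors of foreign nucleic acid 1 was higher and 1 lower in WT, and 3 higher and 1 lower in DN-MCU. Mavs, the mitochondrial adaptor of the RNA sensors, was 1.48 higher in WT (limma adjusted p 0.00168), and Irf3, the factor it activates, differed by -0.79 in WT (adjusted p 0.00499) and -0.81 in DN-MCU (adjusted p 0.00436). Of the 3 called higher in DN-MCU, Adar (0.69) remained with the neonatal block, and Mavs (0.85, adjusted p 0.0528) and Ddx58 (0.55, adjusted p 0.0741) did not. Of 11 tested negative regulators 1 was higher and 4 were lower in WT, and 1 and 6 in DN-MCU. With the neonatal block 4 were lower in DN-MCU, as Irf2 (-0.76, limma adjusted p 0.0629) and Pias4 (-0.70, adjusted p 0.0512) were lost. Ptpn11, a phosphatase, was 1.51 and 1.44 higher, and Irf2bp2, a corepressor, and Ptpn2, a phosphatase for Jak1, differed by -1.83 and -1.29 in WT and by -1.34 and -1.56 in DN-MCU.

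No tested interferon-stimulated gene outside the module passed as lower in adults. Of 37 tested 21 were higher and 0 lower in WT, with a median of 1.07, where 17.2% of all genes were higher. In DN-MCU 16 were higher and 0 lower, with a median of 0.63, where 17.6% of all genes were higher. Over the 45 with a probe set, of which 8 lay under the filter, the medians were 0.62 and 0.43. Ifi27l2a, an interferon-induced membrane protein, was 3.95 higher in WT (SE 0.34, limma adjusted p 7.42e-06) and 4.01 in DN-MCU, Parp14, a mono-ADP-ribosyltransferase, 3.94 and 3.14, and Phf11d 1.79 and 1.60. In DN-MCU, Ifi27, a mitochondrial interferon-induced protein, was 2.52 higher and Lgals3bp, a secreted galectin ligand, 2.47. Of 12 other tested genes of the class I pathway 2 were higher and 1 lower in WT, namely Erap1, which trims peptides (1.70), H2-M3 (1.52) and Rfxap (-0.87), and 5 were higher and 1 lower in DN-MCU, led by H2-M3 (1.79), Erap1 (1.42) and Rfxap (-1.57). Class II molecules present peptides on macrophages, dendritic cells and B cells, and H2-Ab1, H2-Aa and H2-Eb1 lie close to Tap2 on chromosome 17. Genes of the class II pathway, Cd74 among them, had medians of 5.33 in WT and 5.46 in DN-MCU over the 5 tested. Over the 9 with a probe set, of which 4 lay under the filter, the medians were 0.44 and 1.10. Of the 5 tested 4 were higher in WT, H2-Aa by 6.14 (SE 0.18, limma adjusted p 6.98e-09), Cd74 by 5.74, H2-Eb1 by 5.33 and H2-Ab1 by 4.98, and 5 of 5 were higher in DN-MCU, H2-Aa by 6.86, Cd74 by 5.34, H2-Eb1 by 5.46 and H2-Ab1 by 5.59. The fifth, H2-DMb2 (0.71), was lost there with the neonatal block (adjusted p 0.0647).

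Markers of several cell types moved with age in the same arrays. The mean over 13 macrophage markers was 6.70 to 7.23 in the 6 neonates and 8.51 to 8.93 in the 6 adults. Of these 13, 8 passed as higher after birth in each genotype, with medians of 1.97 in WT and 2.23 in DN-MCU, among them Lyz2 (3.77 and 3.78), C1qa (2.73 and 3.09) and C1qc (2.54 and 2.78). The mean over 6 common leukocyte markers was 5.71 to 6.13 in neonates and 6.63 to 8.56 in adults, highest in DN-MCU adult 1, and Itgb2 (1.92 and 2.36), Laptm5 (1.25 and 1.94) and Cd53 (1.43 and 1.41) were higher in both genotypes. All 3 tested neutrophil markers were lower in adults, with differences of -4.93 for S100a8, -5.34 for S100a9 and -0.99 for Ngp in WT. Ighm, the heavy chain of IgM and a B cell marker, was 5.99 higher in WT and 3.93 in DN-MCU. The B cell markers Cd79a and Pax5 and the T and NK cell markers Cd4, Nkg7, Gzmb and Ncr1 stayed under the filter level in all arrays, as did the dendritic cell markers Flt3, Itgax, Xcr1 and Siglech. Endothelial markers, at a mean of 8.87 to 9.38 in all arrays, were 4 of 10 higher and 1 lower in WT and 4 higher and 2 lower in DN-MCU, with medians of 0.32 and -0.02. The mean over 4 adipocyte markers was 5.38 to 5.50 in neonates and 6.83 to 9.05 in adults, and 2 of 3 tested were higher in each genotype. Of 6 mesothelial markers 4 were lower in each genotype, with medians of -2.10 in WT and -1.81 in DN-MCU. Of 8 fibroblast markers 2 were higher and 4 lower in WT and 2 higher and 3 lower in DN-MCU, with medians of -0.53 and -0.49. The part of these cells in the change of the module was not tested.

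**Figure D3:**
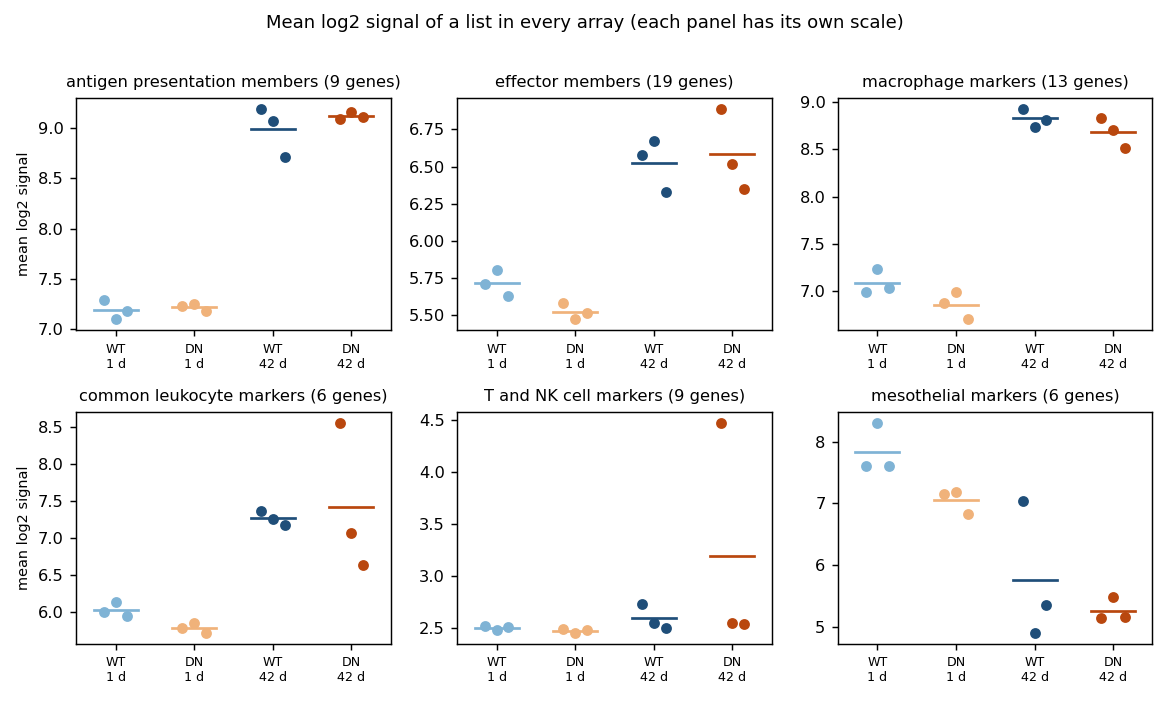
Mean log2 signal over a list of genes in each array, as points with the group mean as a line, for 2 groups of module members and 4 lists of cell type markers, with a separate scale in every panel. Macrophage markers and the antigen presentation members are both higher in all 6 adults, the T and NK cell list stands out at 4.48 in 1 DN-MCU adult only, and mesothelial markers are lower in DN-MCU than in WT neonates.

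The second question was whether DN-MCU altered the module. In adults 1 of 28 members (3.57%) was higher in DN-MCU than in WT and 0 were lower. Among all genes 3.41% were higher and 1.69% lower, so the share of members called is close to that of all genes. The median difference of the members was 0.08 against 0 over all genes. The member called was Psmb10, whose values are given above. All 3 DN-MCU adults (10.02 to 10.61) lay above all 3 WT adults (9.30 to 9.62), which held for 10.3% of all genes. Psmb10 was 0.86 higher (SE 0.19, 1.81-fold, limma adjusted p 0.0252). The call was lost with the neonatal replicate numbers as a block (adjusted p 0.0697) and when only the adult groups were fitted (adjusted p 0.225). It was also lost without WT adult 2 (adjusted p 0.0963), without WT adult 3 (adjusted p 0.104), without DN-MCU adult 1 (adjusted p 0.0546), and without DN-MCU adults 1 and 3 together (adjusted p 0.196), and it was kept without DN-MCU adult 3 (adjusted p 0.0309), while the difference stayed between 0.60 and 0.99.

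The other immunoproteasome subunits, Psmb8 and Psmb9, differed by 0.20 (SE 0.18) and 0.08 (SE 0.26) between adult genotypes. Of 14 constitutive subunits, with a median of 0.15, 2 were higher in DN-MCU adults, against 3.41% of all genes: Psmb1 by 0.67 (SE 0.17, limma adjusted p 0.0496) and Psma5 by 0.48 (SE 0.12, adjusted p 0.0424), and neither passed with the neonatal block (adjusted p 0.0875 and 0.118). Psmb7, the constitutive partner of Psmb10, differed by -0.56 (SE 0.26, limma adjusted p 0.287), Psmb5 by 0.43 and Psmb6 by 0.17.

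Gbp2 was lower in all 3 DN-MCU adults (9.87 to 10.11) than in any WT adult (10.25 to 10.92), which held for 8.14% of all genes. The difference of -0.51 (SE 0.20) did not pass (limma adjusted p 0.195). On the second Gbp2 probe set the genotypes overlapped, with DN-MCU adult 2 (9.07) above WT adult 3, and the difference was -0.36 (SE 0.21). For Oas1a the difference was 0.95 (SE 0.41, limma adjusted p 0.247), for Bst2 0.49 (SE 0.22, adjusted p 0.265), for Ifi35 0.46 (SE 0.20, adjusted p 0.265) and for Ifit1 -0.94 (SE 0.55, adjusted p 0.42). These values turned on single hearts. Of the tested members, DN-MCU adult 1 was the highest array for Usp18, Cxcl10, Ifit1, Ifit2, Ifit3, Bst2, Psmb8, Psmb9 and H2-K1. DN-MCU adult 3 was the highest for Oas1a, Ifi35, Irf1, Psmb10 and Tapbp. Ifit1 passed as lower without DN-MCU adult 1, Oas1a as higher without DN-MCU adult 2 and Ifit3 as higher without DN-MCU adult 3. Of the 37 tested interferon-stimulated genes outside the module 0 passed in adults, nor did any class II gene or macrophage marker. The median of these interferon-stimulated genes was -0.25, and -0.14 over the 45 with a probe set. Ighm was lower in DN-MCU adults (log2 difference -2.13, limma adjusted p 0.00789), and the negative regulator Pias1 differed by -0.63 (adjusted p 0.0443), a call that was lost with the neonatal block (adjusted p 0.0842).

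**Figure D4:**
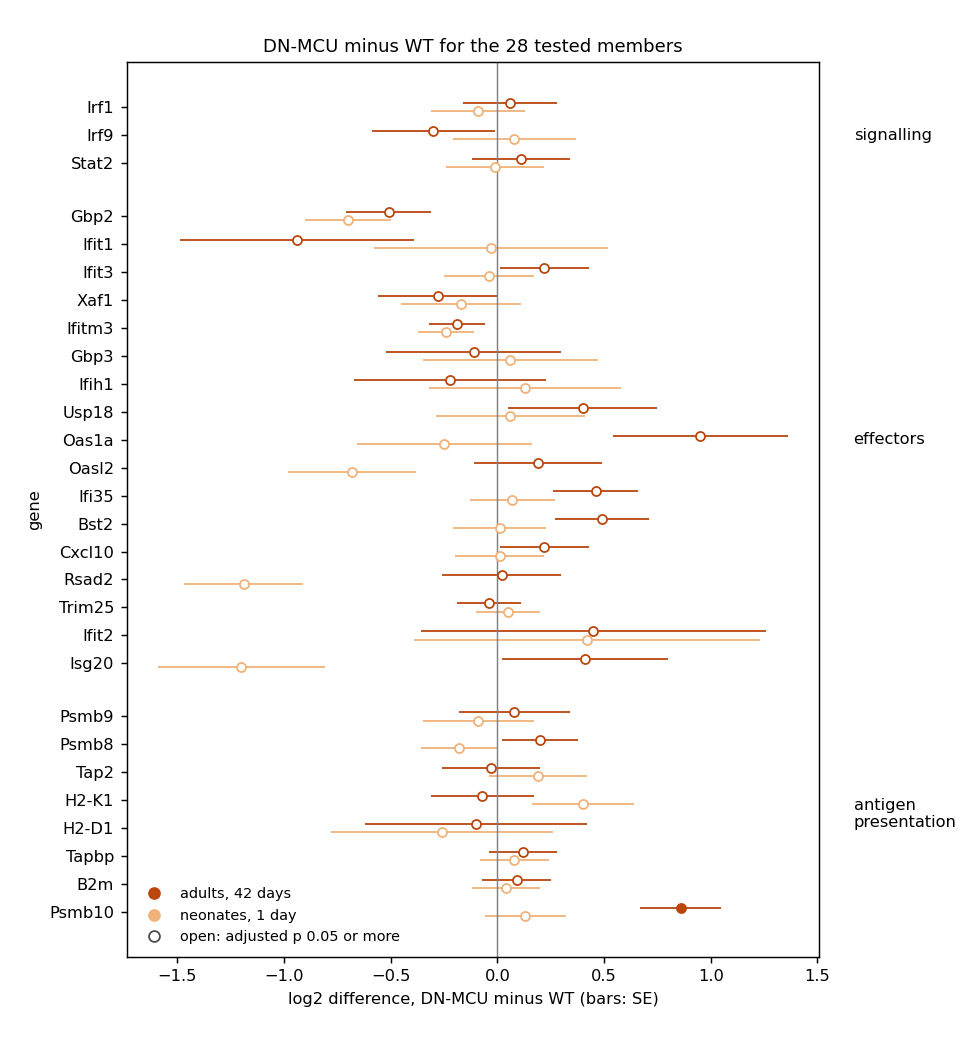
Log2 difference between DN-MCU and WT for the 28 tested members in adults (dark) and neonates (light), by role, with the SE of the fit as bars and filled points for an adjusted p under 0.05. Psmb10 in adults, at 0.86, is the single filled point, and Isg20, Rsad2, Gbp2 and Oasl2 lie farthest to the left in neonates.

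In neonates 0 of 28 members passed in limma's fit, against 0.0254% of all genes, and the median difference was 0. At an unadjusted p under 0.05 there were 4 members, all lower in DN-MCU, and 578 of the 24176 probe sets tested. Rsad2 read 7.78, 8.80 and 7.57 in WT neonates and 6.87, 6.74 and 6.96 in DN-MCU neonates, so that all 3 DN-MCU hearts were lower. The difference was -1.19 (SE 0.28, limma adjusted p 0.732), and the other 2 Rsad2 probe sets gave -1.01 (SE 0.53) and -1.07 (SE 0.31). Isg20 read 6.15, 6.73 and 5.18 against 4.66, 4.68 and 5.13, a difference of -1.20 (SE 0.39). Gbp2 differed by -0.70 (SE 0.20), with -0.75 (SE 0.21) on its second probe set, and Oasl2 by -0.68 (SE 0.30).

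Counted by overlap, 6 members were lower in all 3 DN-MCU neonates than in any WT neonate (Isg20, Oasl2, Rsad2, Gbp2, Ifitm3 and Psmb8), against 4.77% of all genes, and 1, H2-K1, was higher, against 9.13%. Ifitm3 differed by -0.24 and Psmb8 by -0.18, and H2-K1 by 0.40. The mesothelial and macrophage lists were on average lower in the DN-MCU neonates, though the macrophage means met at 6.99 in WT neonate 1 and DN-MCU neonate 2. The mean over 6 mesothelial markers was 7.61, 8.31 and 7.60 in WT neonates and 7.16, 7.19 and 6.83 in DN-MCU neonates, and that over 13 macrophage markers was 6.99, 7.23 and 7.03 against 6.87, 6.99 and 6.70. All 13 macrophage markers differed by 0 or less, and none of the marker genes passed. The part of these cells in the lower members was not tested.

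The interaction of genotype and age asked whether the DN-MCU effect differed between the ages. It was passed by 0 of 28 members in limma's fit, against 0.949% of all genes, and 3 members had an unadjusted p under 0.05, as did 2230 of the 24176 probe sets tested. These were Isg20 (1.61, SE 0.55, adjusted p 0.334), Rsad2 (1.22, SE 0.40, adjusted p 0.294) and Psmb10 (0.73, SE 0.26, adjusted p 0.364), each with a DN-MCU effect that was more positive in adults. The median over the tested members was 0.16, against -0.03 over all genes.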

How the data were processed

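One table of log2 signals for 45101 probe sets on 12 arrays was used as the authors deposited it. That the scale is log2 was read from the values. The sources used here do not give how the arrays were normalized to each other; the submitters' processing notes list Partek, without a version or role. Exactly 1 gene symbol was attached to 34945 probe sets, several to 932 and none to 9160. Array medians lay between 3.24 and 3.46, the highest correlation between any pair of arrays was 0.994, and nothing was normalized again. After 64 control probe sets were taken out, those with at least 3 of 12 values above log2 3.35, the median of all values, stayed in the fit (24176 probe sets). Signals under that level are close to background and poorly measured.

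Means of the 4 groups were estimated together in limma 3.58.1 (R 4.3.3, lmFit and eBayes), p-values were adjusted by Benjamini and Hochberg over the 24176 probe sets for each comparison, and an adjusted p under 0.05 counts as passed. The procedure was also run on simulated data. These had the same spread in every group, whereas the real adults varied more than the neonates. That run is therefore no check of the comparisons that include adults. Folds are left out where the lower group is at background. The p-values measure the spread between separately labelled animals. Members, lists and alternatives were chosen with earlier results of these data known. Every member is accounted for. For the pathway and leukocyte lists the 3 genes with the smallest p are named where any passed, with the ligands, receptor chains and constitutive partners of the immunoproteasome in every case. Other genes named, and the probe sets in the closing section, were chosen after their values were seen.

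Same-numbered WT and DN-MCU neonates deviated from their group means together (correlations 0.133, 0.223 and 0.283). They were taken as pairs in an alternative fit, from the data and not from the labels. Counts, SE and adjusted p come from the fit without pairs unless another fit is named. Neonates of different numbers gave -0.292 to 0.0902. With 3 arrays in a group these correlations are tied to each other, so the pairing is uncertain. Same-numbered adults were not taken as pairs (-0.381, 0.41 and -0.428). The fit with this neonatal block is quoted where it changed the call of a member or of another gene named here. Alternatives were other scalings, filters, fits, blocks and probe sets, each array left out in turn, and WT adult 1 with DN-MCU adult 3 left out. Leaving out DN-MCU adults 1 and 3 together was added after the data were seen.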

Additional observations from a re-analysis of the deposited data

How the results depend on the processing

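Under the 25 alternatives no call of a member reversed its direction. Of the members called higher after birth, 13 in WT (Irf1, Irf9, Ifit1, Ifit3, Gbp2, Ifitm3, Psmb8, Psmb9, Tap2, Tapbp, B2m, H2-K1 and H2-D1) and 14 in DN-MCU stayed called in every alternative that tested them. The number of members that passed in WT, 17, fell to 11 under the stricter filter (log2 7.25), which tested 16 members, and ranged from 14 to 21 as single arrays were left out. Isg20 was among them as lower without WT neonate 3 and without DN-MCU adult 3, so at most 20 were higher. The DN-MCU number, 19, ranged from 18 to 21, with Trim25 as lower without DN-MCU adult 1. The WT median of 1.17 became 1.33 with quantile normalization, 1.04 with array medians subtracted, 1.03 with no filter and 1.49 with the stricter filter, and ranged from 0.93 to 1.25 with single arrays left out. Subtracting array medians moved the median of all genes to -0.29 in WT and -0.32 in DN-MCU. The DN-MCU median of 1.29 became 1.12 with no filter and ranged from 1.14 to 1.40 with arrays left out. In adults the single call became 0 when only the groups compared were fitted, 0 with the replicate block within each age and 0 with the replicate block for neonates, and 3 without WT adult 1 and DN-MCU adult 3 (Psmb10, Ifit3 and Bst2). It ranged from 0 to 2 with single arrays left out, and the adult median from -0.01 to 0.16. Neonates and the interaction gave 0 calls in every alternative run. Under the replicate block for neonates 14 WT and 19 DN-MCU members stayed higher after birth. The pairing of adults was not borne out by the data, and with a block within each age the counts were 16 and 20. Having 3 arrays per group limits what these comparisons can show. So do signals near background for Stat2, Ifit1, Ifit3, Usp18 and the members under the filter. The same holds for Oas1a in the DN-MCU neonates and for Psmb9 in some neonates.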

Other observations

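Some further probe sets of the members split the hearts by animal and not by group, and were chosen after their values were seen. Among the adults, 3 H2-D1 probe sets that can match related genes were high in WT adult 2, WT adult 3 and DN-MCU adult 1 and low in the other 3. The brightest of them read 9.91, 9.48 and 9.47 in these hearts and 5.28, 4.29 and 4.24 in WT adult 1, DN-MCU adult 2 and DN-MCU adult 3. A second read 9.14, 8.78 and 8.83 against 3.99, 3.47 and 2.92, and the third 8.46, 8.49 and 8.54 against 4.17, 3.90 and 3.81. All 6 neonates were low on the 3 probe sets, at 2.66 to 3.82. The probe set that represents H2-D1 above split the same adults the other way: WT adult 1, DN-MCU adult 2 and DN-MCU adult 3 were high at 12.84, 12.21 and 11.56, and WT adult 2, WT adult 3 and DN-MCU adult 1 were lower at 11.18, 10.65 and 10.59. These hearts come from both genotypes, so the split does not follow DN-MCU.

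Another H2-D1 probe set separated the neonates by genotype, at 6.88, 6.57 and 7.02 in WT and 8.68, 8.67 and 8.68 in DN-MCU. The difference of 1.85 (SE 0.61) did not pass in limma's fit across all 12 arrays, where the wide spread of the adults enters the error. The adults read 10.28, 7.78 and 7.53 in WT and 10.24, 8.91 and 9.08 in DN-MCU and overlapped. The second Xaf1 probe set was at 9.55 in DN-MCU adult 1 and 7.54 in DN-MCU neonate 3 and at 3.12 to 3.26 in the other 10 hearts.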
